A study of Mus musculus with 26 samples.

Results

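The cytosolic sulfotransferases were followed through the livers of leptin-treated obese mice, together with Papss2, which makes their cofactor. A probe was kept when the array annotation gave it one of 9 gene symbols (Sult1a1, Sult1b1, Sult1c2, Sult1d1, Sult1e1, Sult2a2, Sult3a1, Sult5a1 and Papss2) and when it was detected on at least 4 of 26 arrays. Of 25697 probes on the array, 11 carried such a symbol. Of those 11, 8 probes of 7 genes passed the detection rule, among 11001 probes that passed it in all.

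Cytosolic sulfotransferases move a sulfonate group from the donor PAPS onto hormones, bile acids, neurotransmitters and drugs, which as a rule makes these molecules more soluble in water and less active. PAPS is built from sulfate and ATP by the PAPS synthases, of which Papss2 is a main form in liver. The estrogen sulfotransferase Sult1e1, which inactivates estrogens, is known as a gene with little expression in the liver of lean healthy mice and with raised expression in the liver of obese, diabetic mice.

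The study asked how leptin given to the brain or under the skin changes gene expression in the liver, and RNA from the liver of each mouse went onto 1 array (Illumina MouseRef-8 v2.0). All mice except the B6 mice were female ob/ob mice on the C57BL6 background, which carry no functional leptin, were assigned to treatments at 15 weeks of age and received a continuous infusion from an osmotic pump for 12 days. LEP-SQ mice (n = 4) received leptin subcutaneously at 10 µg per day, and VEH-SQ mice (n = 4) received the vehicle by that route. LEP-ICV mice (n = 4) received leptin into a lateral cerebral ventricle at 1.5 µg per day and lost weight. LEP-ICVN mice (n = 4) were set up for the same infusion but lost almost no weight. The study states that their cannulas may have been misplaced or that the treatment failed. Brain sections left the placement unconfirmed in at least some of them. VEH-ICV mice (n = 4) received vehicle, artificial cerebrospinal fluid, into the ventricle. B6 mice (n = 6) carry functional leptin and served as a baseline, and their sex and age are not given in the sources used here. A supplementary sheet of the study marks 3 of them (B6_2021, B6_2029 and B6_2035) as aCSF, the vehicle of the ICV infusion, which the labels do not state. LEP-ICV and LEP-ICVN were thus parted by an outcome of the treatment, not by the treatment assigned, and the leptin doses of the SQ and ICV routes differed. The study reported lower food intake and weight loss with leptin by both routes, with the greater weight loss by ICV. Route, dose and amount of weight loss therefore cannot be told apart where the routes are compared.

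Values are log2 intensities after background correction and quantile normalisation, on which a difference of 1 is a doubling. A probe counts as detected on an array where its signal exceeded the negative control beads at a detection p under 0.01. A probe was called changed where the adjusted p of a limma model over all 6 groups was under 0.05 (Benjamini-Hochberg over 11001 probes). The arrays fell into a pair of background classes: the background signal was 99.4 to 113.8 on 12 arrays and 152.7 to 186.1 on the other 14. All LEP-SQ and B6 arrays were in the high class, all VEH-SQ and VEH-ICV arrays in the low class, and LEP-ICV and LEP-ICVN had 2 arrays in each. No class therefore held both LEP-SQ and VEH-SQ, or both vehicle ob/ob and B6, and the results below are followed by values or counts from a model with the class as a block. With the block, these comparisons across classes rest on the LEP-ICV and LEP-ICVN arrays, which link the classes. The number of detected probes was 9049 to 10332 on LEP-SQ, 6786 to 8516 on VEH-SQ and 9201 to 10169 on B6 arrays. It was 7880 to 11117 on LEP-ICV, 7679 to 9901 on LEP-ICVN and 7059 to 7992 on VEH-ICV arrays. The hepatocyte genes Alb, Ttr, Apoa1 and Serpina1c were detected in every mouse, with a summed log2 level of 16.60 to 17.06 that Ttr and Apoa1 carry. The Alb probe varied with group, and its change was −3.11 in LEP-SQ against VEH-SQ (adjusted p = 0.00217, limma; −0.68 with the class as a block, adjusted p = 0.817), −2.89 in LEP-ICV against VEH-ICV (adjusted p = 0.00247; −1.68 with the block, adjusted p = 0.0146) and 2.43 in vehicle ob/ob against B6 (adjusted p = 0.000131; 0.0058 with the block, adjusted p = 0.997). No adipocyte marker (Adipoq, Plin1, Retn) passed the detection rule. In whole liver, fewer cells of a type and less RNA per cell cannot be told apart.

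Sult1e1 was high in obese vehicle livers and low, mostly below detection, in LEP-SQ, LEP-ICV and B6 livers. Its probe (ILMN_1216300) was detected on 12 of 26 arrays. The gene lies on mouse chromosome 5 at 87575968 to 87591611 (GRCm38.p6), on the minus strand, beside 2 other members: Sult1d1 begins 6961 bases away, and Sult1b1 lies 16454 bases beyond Sult1d1. The promoters of the neighbours Sult1e1 (chr5:87591562-87591861) and Sult1d1 (chr5:87568957-87569256) are shown because both genes were lower in LEP-ICV livers, while only Sult1e1 was also called in LEP-SQ livers. Both are from RefSeq (GRCm38.p6), minus strand, written 5′ to 3′ from 250 bases before the start site to 50 after it.
Sult1e1 promoter: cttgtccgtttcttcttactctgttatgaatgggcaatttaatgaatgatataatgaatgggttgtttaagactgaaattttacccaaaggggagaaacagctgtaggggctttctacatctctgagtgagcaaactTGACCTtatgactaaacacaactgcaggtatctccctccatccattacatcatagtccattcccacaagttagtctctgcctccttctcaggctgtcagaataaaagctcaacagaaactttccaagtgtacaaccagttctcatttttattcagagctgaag
Sult1d1 promoter: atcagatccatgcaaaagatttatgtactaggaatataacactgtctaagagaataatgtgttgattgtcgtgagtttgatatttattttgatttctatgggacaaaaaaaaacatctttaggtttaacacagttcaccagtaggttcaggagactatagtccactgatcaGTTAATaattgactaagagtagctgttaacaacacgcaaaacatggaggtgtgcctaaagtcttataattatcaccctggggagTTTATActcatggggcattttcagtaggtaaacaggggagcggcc
Capitals mark matches to the motifs searched on both strands. These were the TATA box, spelled TATAAA, the half-site to which many nuclear receptors bind, AGGTCA, the half-site of the hepatocyte factor HNF1, GTTAAT, the site of STAT factors, TTCNNNGAA, the GC box to which Sp1 binds, GGGCGG, and the E-box of basic helix-loop-helix factors, CACGTG, and no matches overlapped here. In Sult1e1 the capitals TGACCT are AGGTCA on the opposite strand, 113 to 108 bases before the start, a motif present in 16.3% of 32851 mouse promoters of this length. In Sult1d1 they are GTTAAT, 79 to 74 bases before the start and present in 7.1% of promoters, and TATAAA on the opposite strand, beginning 5 bases after the start and present in 13.6%.

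In LEP-SQ livers Sult1e1 measured 5.60, 6.40, 4.72 and 4.88, against 9.73, 8.93, 8.90 and 7.35 in VEH-SQ livers. Every LEP-SQ value lay below every VEH-SQ value, and the probe was detected in 1 LEP-SQ mouse and in all 4 VEH-SQ mice. The change was −3.33 on the log2 scale (SE 0.40, 95% confidence interval −4.16 to −2.50, adjusted p = 3.71e-05, limma). It was −3.36 with the background class as a block (adjusted p = 0.00936). The size, though not the call, moved with the processing: without background correction it was −1.59 and in the authors' own log2 values −1.06.

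In LEP-ICV livers Sult1e1 measured 5.63, 5.40, 5.17 and 5.17, against 8.30, 7.92, 7.89 and 7.98 in VEH-ICV livers. The LEP-ICV values were all below detection and the VEH-ICV values all above it, so the fall is at least 3.32-fold on the background-corrected scale. The fitted change was −2.68 (SE 0.40, interval −3.51 to −1.85, adjusted p = 7.25e-05, limma). Such bounds set the mean of the brighter group against the lowest signal that counted as detected on the arrays of the dimmer group. Here and below they hold for the background-corrected scale only. On the low-background arrays alone, with 2 LEP-ICV and 4 VEH-ICV mice, the change was −2.50 (adjusted p = 0.0376). Without background correction it was −1.05 and in the authors' log2 values −0.53.

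LEP-ICVN livers held Sult1e1 near the vehicle level, at 7.91, 6.28, 7.31 and 8.12. Their range reached below the VEH-ICV range and overlapped it, and 3 of the 4 were detected. LEP-ICVN differed from VEH-ICV by −0.62 (interval −1.45 to 0.21, adjusted p = 0.286), an interval that holds both a fall of over 1 and a small rise. LEP-ICV differed from LEP-ICVN by −2.06 (adjusted p = 0.00182, limma; at least 2.16-fold lower), and no value of the groups overlapped. That call was lost in the authors' log2 values (−0.34, adjusted p = 0.288), on low-background arrays alone (−1.68, adjusted p = 0.312) and when only the groups compared were fitted (−2.06, adjusted p = 0.0984).

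The 8 vehicle ob/ob livers ran from 7.35 to 9.73 and were all detected, against 4.66 to 4.92 with a median of 4.75 in the 6 B6 livers, all below detection. Vehicle ob/ob exceeded B6 by 3.60 (SE 0.31, interval 2.97 to 4.24, adjusted p = 5.79e-09, limma), at least 5.21-fold. With the class as a block the difference was 3.64 (adjusted p = 0.000118). Without background correction it was 1.54 and in the authors' log2 values 0.91, both still called, so the bound holds for the background-corrected scale only. On high-background arrays alone, the 2 LEP-ICVN mice also lay above the 6 B6 mice, by 2.84 (adjusted p = 0.000448), and LEP-SQ lay below those 2 LEP-ICVN mice, with a change of −2.21 (adjusted p = 0.0223). Between LEP-SQ and B6 the difference was 0.63 (interval −0.13 to 1.39, adjusted p = 0.344). By group mean the order from high to low was VEH-SQ (8.73 ± 0.99), VEH-ICV (8.02 ± 0.19), LEP-ICVN (7.40 ± 0.83), LEP-SQ (5.40 ± 0.77), LEP-ICV (5.34 ± 0.22) and B6 (4.77 ± 0.11; SD, n = 4 each and 6 for B6). VEH-SQ overlapped VEH-ICV and LEP-ICVN, VEH-ICV overlapped LEP-ICVN, and LEP-SQ overlapped LEP-ICVN, LEP-ICV and B6.

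**Figure D1:**
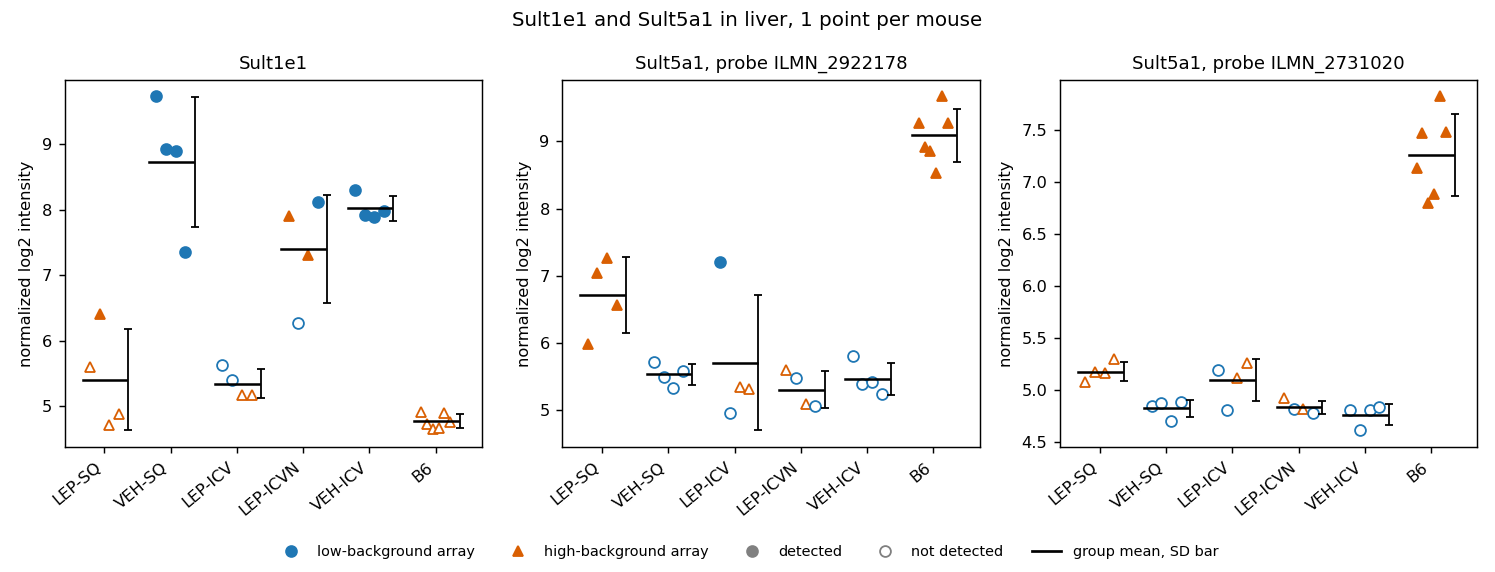
Log2 intensity of Sult1e1 and of the Sult5a1 probe ILMN_2922178 in each mouse (y axis) by group (x axis). Blue circles are low-background and orange triangles high-background arrays, filled where the probe was detected, and the line and bar give the group mean and SD; Sult1e1 is detected in no LEP-ICV mouse and in all 4 VEH-ICV mice, and in all 8 vehicle ob/ob mice and no B6 mouse, while Sult5a1 is highest in the 6 B6 mice.

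Sult5a1, a sulfotransferase of little known substrate, showed the opposite order of obese and lean livers. The gene lies on chromosome 8 at 123142843 to 123158914 (GRCm38.p6). Its promoter in RefSeq (GRCm38.p6, chr8:123158231-123158530, minus strand, same window, around a start inside the gene's span) is shown because 1 of its probes had the largest negative difference of the 8 in vehicle ob/ob against B6.
Sult5a1 promoter: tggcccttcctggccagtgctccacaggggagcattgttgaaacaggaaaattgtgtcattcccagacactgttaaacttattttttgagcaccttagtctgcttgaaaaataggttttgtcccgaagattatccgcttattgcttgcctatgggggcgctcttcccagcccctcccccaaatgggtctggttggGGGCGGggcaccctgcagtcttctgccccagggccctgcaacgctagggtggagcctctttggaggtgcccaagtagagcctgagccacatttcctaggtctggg
Capitals mark the GC box GGGCGG, 55 to 50 bases before the start, which 35.7% of promoters contain. Both of its probes on the array passed the detection rule, and their levels had a Pearson r of 0.945 over the 26 arrays, on the same libraries. ILMN_2731020 was detected only on the 6 B6 arrays, so its values on all other arrays in this r lay below detection.

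Probe ILMN_2922178 ran from 5.25 to 5.81 in vehicle ob/ob livers, none of them detected, against 8.54 to 9.67 in B6 livers, all 6 detected. The difference between vehicle ob/ob and B6 was −3.58 (SE 0.27, adjusted p = 9.01e-10, limma; at least 4.61-fold lower in vehicle ob/ob). With the class as a block it was −3.92 (adjusted p = 9.09e-06). Probe ILMN_2731020 ran from 4.61 to 4.88 in vehicle ob/ob, all below detection, against 6.80 to 7.82 in B6, all detected. Its difference was −2.47 (SE 0.14, adjusted p = 1.42e-11; at least 1.31-fold lower) and −2.34 with the block (adjusted p = 1.39e-06). ILMN_2731020 was detected on the 6 B6 arrays and no others, so it passed the detection rule only through the group where it was high. Its tests against B6 are therefore not independent of that rule. Without background correction the differences of the probes were −1.74 and −0.87, and in the authors' log2 values −1.22 and −0.36. The bounds of both probes thus hold for the background-corrected scale only.

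Under subcutaneous leptin 1 of the 2 Sult5a1 probes was called, close to detection. ILMN_2922178 measured 5.99, 7.05, 7.27 and 6.57 in LEP-SQ livers, all detected, against 5.72, 5.50, 5.33 and 5.59 in VEH-SQ livers, none detected. The groups did not overlap, and the change was 1.18 (adjusted p = 0.0123, limma). It has no lower bound as a fold, since the LEP-SQ mean of 6.72 lay below the detection floor of 6.77 on the VEH-SQ arrays. The call ended with the class as a block (1.52, adjusted p = 0.32), without background correction (0.38, adjusted p = 0.0545) and in the authors' log2 values (0.13, adjusted p = 0.376). ILMN_2731020 was below detection in all LEP-SQ and VEH-SQ livers, and its change was 0.35 (adjusted p = 0.126). LEP-SQ and B6 were all on high-background arrays, and there both probes stayed lower in LEP-SQ, by −2.37 (adjusted p = 7.69e-05) and −2.09 (adjusted p = 6.58e-08, at least 2.49-fold lower). LEP-ICV livers measured 7.20, 4.97, 5.35 and 5.32 on ILMN_2922178, against 5.81, 5.40, 5.43 and 5.25 in VEH-ICV livers. The high LEP-ICV value was mouse LEP_ICV_1003, the only mouse of these groups detected, and the change of 0.24 (adjusted p = 0.624) became −0.25 without it.

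Sult1d1, which in mice acts on phenolic amines such as dopamine and serotonin, was detected on all 26 arrays by its probe ILMN_2641217, and it fell with leptin given to the brain. LEP-ICV livers measured 10.31, 9.23, 10.90 and 8.98, against 11.33, 11.22, 11.79 and 11.26 in VEH-ICV livers. All 4 LEP-ICV values lay below all 4 VEH-ICV values, with mice LEP_ICV_1014 and LEP_ICV_1019 the lowest. The change was −1.55 (SE 0.35, interval −2.27 to −0.82, adjusted p = 0.00329, limma), a 2.92-fold lower intensity, and −1.74 with the class as a block (adjusted p = 0.00462). The call was lost with median scaling (−1.23, adjusted p = 0.103), when only the groups compared were fitted (−1.55, adjusted p = 0.0579) and on low-background arrays alone (−1.63, adjusted p = 0.0518).

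LEP-ICVN livers measured 11.97, 10.69, 11.46 and 11.54 for Sult1d1, within or around the VEH-ICV range. Their difference from VEH-ICV was 0.01 (adjusted p = 0.982). LEP-ICV was lower than LEP-ICVN by a change of −1.56 (adjusted p = 0.00599), although mouse LEP_ICV_1017 lay above mouse LEP_ICVN_1004. On high-background arrays alone, with 2 mice a group, the change was −1.77 (adjusted p = 0.0352); it lost the call with median scaling (−1.53, adjusted p = 0.121), on low-background arrays (−1.35, adjusted p = 0.274) and when only the groups compared were fitted (−1.56, adjusted p = 0.261).

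Subcutaneous leptin left Sult1d1 at 11.41, 11.47, 10.75 and 11.0035 in LEP-SQ livers, against 11.48, 10.07, 11.34 and 11.03 in VEH-SQ livers. The ranges overlapped and the change was 0.18 (interval −0.55 to 0.90, adjusted p = 0.698). The ICV effect minus the SQ effect of leptin on Sult1d1 was −1.73 (interval −2.75 to −0.70), and it did not pass the test (adjusted p = 0.0782). Without mouse LEP_ICV_1003 it was −1.88 (adjusted p = 0.0427), and without mouse LEP_ICV_1017 −2.07 (adjusted p = 0.0129). For Sult1e1 that difference was 0.65 (interval −0.52 to 1.82, adjusted p = 0.583). Vehicle ob/ob livers ran from 10.07 to 11.79, against 11.75 to 12.26 in B6 livers, a difference of −0.77 (adjusted p = 0.0138) that became −0.39 with the class as a block (adjusted p = 0.62). Against the 3 B6 mice marked aCSF alone it was −0.62 (adjusted p = 0.146), and against the other 3 it was −0.93 (adjusted p = 0.0293).

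Markers of liver macrophages moved in the LEP-ICV group in which Sult1e1 and Sult1d1 fell. All 4 tested Kupffer cell genes were higher in LEP-ICV than in VEH-ICV, beside 12.5% higher over all tested probes. The changes were 0.94 for Clec4f, 1.98 for Vsig4, 1.32 for Marco and 1.09 for Adgre1. All 4 were still called with the class as a block, beside 11.4% of all probes. Their summed log2 level was 12.73 to 12.89 in LEP-ICV livers, against 11.07 to 11.97 in LEP-ICVN livers and 11.21 to 11.95 in VEH-ICV livers. The summed hepatocyte level was 16.60 to 16.95 in LEP-ICV and 16.83 to 16.94 in VEH-ICV livers, and 1 of its 4 genes, Alb, was lower. In LEP-SQ livers, where Sult1e1 also fell, the Kupffer sum was 11.93 to 12.26, against 11.06 to 12.11 in VEH-SQ livers. B6 livers, in which Sult1e1 was not detected, had 12.20 to 12.91. The part of these cells in the changes of Sult1e1 and Sult1d1 was not tested.

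Sult3a1, an amine sulfotransferase that is known to be higher in female than in male mouse liver, was detected on 9 of 26 arrays (probe ILMN_1226659, chromosome 10). It measured 5.52, 4.61, 4.55 and 5.12 in LEP-ICV livers, none detected, against 8.01, 8.68, 7.46 and 5.56 in VEH-ICV livers, 3 of them detected. The groups touched without overlapping, at 5.52 and 5.56. The change was −2.48 (adjusted p = 0.00895, limma; at least 2.20-fold lower), and −1.77 with the class as a block (adjusted p = 0.0894) and −2.36 on low-background arrays alone (adjusted p = 0.117). In LEP-SQ livers it measured 4.60, 5.83, 4.76 and 4.79, against 7.73, 5.02, 6.90 and 6.87 in VEH-SQ livers. The change of −1.63 lay close to the threshold (adjusted p = 0.0471), was −0.22 with the block (adjusted p = 0.973), −0.60 without background correction (adjusted p = 0.0676) and −0.25 in the authors' log2 values (adjusted p = 0.167), and missed the threshold when any of 6 of the 8 mice was left out (all but mouse LEP_SQ_1032 and mouse VEH_SQ_1034). Array background moved with this gene: of the 4 LEP-ICVN livers, the 2 on low-background arrays measured 7.27 and 8.03 and the 2 on high-background arrays 5.12 and 4.98. Vehicle ob/ob exceeded B6 by 1.72 (adjusted p = 0.00405), which was 0.30 with the block (adjusted p = 0.841).

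Sult1c2, a family member active on phenols in vitro, was detected on 19 of 26 arrays (probe ILMN_2612973, chromosome 17) and was brighter in both leptin groups. LEP-SQ livers measured 8.78, 7.63, 8.09 and 9.01, against 6.59, 6.72, 6.84 and 6.58 in VEH-SQ livers. LEP-ICV livers measured 7.50, 6.58, 8.81 and 8.30, against 6.14, 5.28, 5.998 and 6.43 in VEH-ICV livers, of which none was detected. Neither pair of groups overlapped. The changes were 1.70 by the SQ route (adjusted p = 0.0115, limma) and 1.84 by the ICV route (adjusted p = 0.0106, at least 1.76-fold higher), and with the class as a block they were 0.24 (adjusted p = 0.946) and 1.11 (adjusted p = 0.12). The ICV call was also lost without mouse LEP_ICV_1017 (1.498, adjusted p = 0.0537), on low-background arrays alone (1.08, adjusted p = 0.0867), with array weights (1.14, adjusted p = 0.0786) and in the authors' log2 values (0.47, adjusted p = 0.123). LEP-ICVN livers measured 7.71, 6.93, 8.43 and 6.39, of which the higher 7.71 and 8.43 were on high-background arrays. The difference of vehicle ob/ob from B6, −1.67 (adjusted p = 0.000516), was −0.21 with the block (adjusted p = 0.84).

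Sult1a1, the phenol sulfotransferase, was detected on all 26 arrays (probe ILMN_2745370, chromosome 7). It measured 13.78, 13.75, 13.84 and 13.58 in LEP-SQ livers, against 13.49, 13.33, 13.41 and 13.18 in VEH-SQ livers. The groups did not overlap, yet the change of 0.38 missed the threshold (adjusted p = 0.268). It was 12.70, 13.50, 14.33 and 13.12 in LEP-ICV livers, against 13.25, 13.13, 13.23 and 13.06 in VEH-ICV livers, with a change of 0.24 (adjusted p = 0.536). Again the array class moved with the level, since the LEP-ICVN livers on high-background arrays measured 14.41 and 14.12 and those on low-background arrays 12.99 and 13.09. Vehicle ob/ob lay −0.93 from B6 (adjusted p = 0.000585), and −0.01 with the block (adjusted p = 0.989).

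Papss2, the PAPS synthase, was detected on 25 of 26 arrays (probe ILMN_2638349, chromosome 19). It measured 8.35, 8.50, 8.20 and 8.39 in LEP-SQ livers, against 7.78, 6.81, 7.74 and 7.89 in VEH-SQ livers. The groups did not overlap, and the change was 0.81 (adjusted p = 0.0796, limma), or −0.0059 with the block (adjusted p = 0.999). LEP-ICV livers measured 7.25, 6.51, 8.33 and 7.27, against 7.70, 7.56, 8.25 and 7.72 in VEH-ICV livers, with a change of −0.47 (adjusted p = 0.349). The LEP-ICVN livers on high-background arrays measured 8.60 and 8.09 and those on low-background arrays 7.59 and 7.70. Vehicle ob/ob livers ran from 6.81 to 8.25, against 7.92 to 9.91 in B6 livers, a difference of −1.56 (adjusted p = 4.93e-05), or −0.75 with the block (adjusted p = 0.282).

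**Figure D2:**
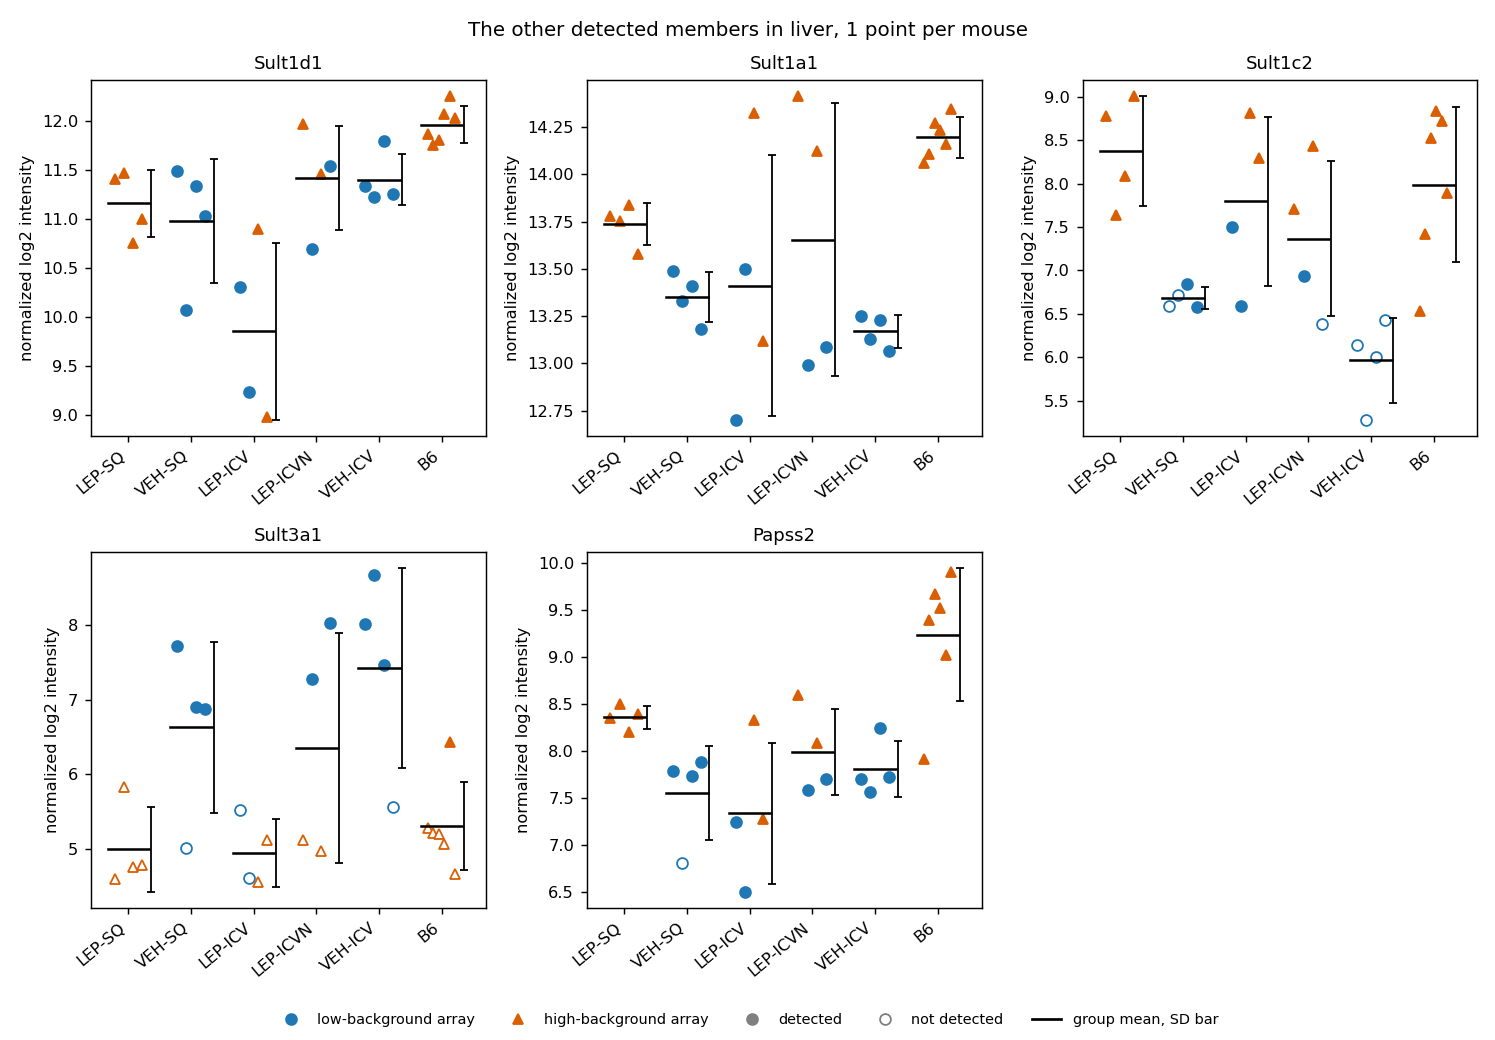
Log2 intensity of the remaining member probes in each mouse (y axes) by group (x axes), drawn as in the plot of Sult1e1. In Sult1a1, Sult1c2, Sult3a1 and Papss2 the triangles and circles of the LEP-ICVN group stand apart, as in the values above. In Sult1d1 the LEP-ICV group is low on arrays of both classes.

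The other 2 members had no usable signal here. Sult1b1, which acts on thyroid hormones and phenols, has 2 probes that were detected on 0 of 26 arrays, as was the second probe of Sult1d1 (ILMN_2955850). For Sult2a2, a hydroxysteroid and bile acid sulfotransferase on chromosome 7, no probe carried the symbol.

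Counted together, 4 of the 8 member probes were called in LEP-SQ against VEH-SQ, where 41.9% of all tested probes were called (22.1% higher and 19.8% lower): Sult1c2 and 1 probe of Sult5a1 rose, and Sult1e1 and Sult3a1 fell. With the class as a block, 0.245% of all probes and 1 member, Sult1e1, were called. In LEP-ICV against VEH-ICV 4 of 8 were called, against 23.4% of all (12.5% higher and 10.9% lower): Sult1c2 rose, and Sult1e1, Sult1d1 and Sult3a1 fell. With the block, 11.4% of all probes were called and 2 members, Sult1e1 and Sult1d1. LEP-ICVN against VEH-ICV gave 0 called members with limma, with 0% of all probes called; at an unadjusted p under 0.05 there were 1 member and 2935 probes. LEP-ICV against LEP-ICVN gave 2 members, Sult1e1 and Sult1d1, both lower, against 7.24% of all (4.2% higher and 3.05% lower), and the same 2 with the block, against 10.7%.

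In vehicle ob/ob against B6 all 8 member probes were called, 2 higher and 6 lower, where 68.9% of all tested probes were called (32.7% higher and 36.3% lower). The block left 3 of them, Sult1e1 and both Sult5a1 probes, against 7.81% of all. In LEP-SQ against B6 the 2 Sult5a1 probes were called, both lower, against 7.24% of all (4.62% higher and 2.62% lower), and again with the block, against 12.6%. ILMN_2731020 counts in both comparisons with B6, although it passed the detection rule only through B6 arrays. The test of the difference between routes called 0 members with limma and 1.47% of all probes (0.8% higher and 0.673% lower; 1.12% with the block), with 2 members and 1693 probes at an unadjusted p under 0.05. The median change of the 8 probes was 0.37 in LEP-SQ against VEH-SQ, −0.11 in LEP-ICV against VEH-ICV and −1.25 in vehicle ob/ob against B6, beside 0.04, 0.05 and −0.04 over all tested probes. Vehicle ob/ob against B6 shares its VEH-SQ arrays with LEP-SQ against VEH-SQ and its VEH-ICV arrays with LEP-ICV against VEH-ICV.

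**Figure D3:**
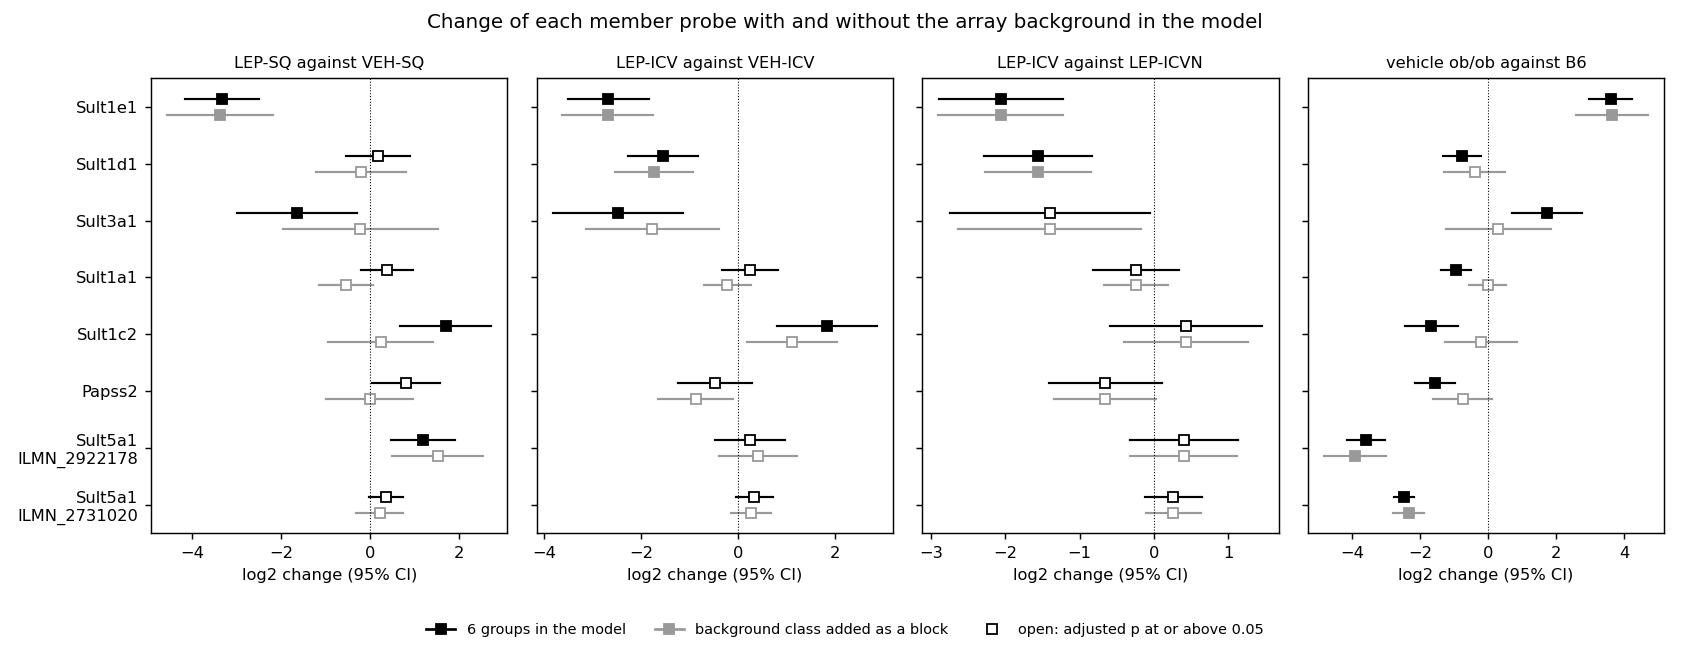
Log2 difference of each member probe with its 95% confidence interval (x axes) in 4 comparisons, in black from the model of 6 groups and in grey with the background class as a block, filled where the adjusted p was under 0.05. Sult1e1 keeps its place and its filled marker under both models against vehicle and against B6, while Sult1c2, Sult3a1, Sult1a1 and Papss2 move towards 0 with the block wherever they were called.

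Of 14 further cytosolic sulfotransferases named, 5 had probes and 1, Sult2a8, passed the detection rule. Sult2a8 belongs to the hydroxysteroid and bile acid sulfotransferases. It ran from 12.01 to 12.69 in LEP-SQ livers, against 8.24 to 9.64 in VEH-SQ livers, with no overlap. The change was 3.28 (SE 0.42, adjusted p = 6.38e-05, limma), and 2.63 with the class as a block (adjusted p = 0.0518). By the ICV route it ran from 8.30 to 10.78 in LEP-ICV livers, against 8.92 to 10.39 in VEH-ICV livers, with a change of 0.20 (adjusted p = 0.746). The effects of the routes differed (ICV minus SQ −3.08, SE 0.60, adjusted p = 0.011), with the block as well (−2.75, adjusted p = 0.0291). Vehicle ob/ob livers ran from 8.24 to 10.39, against 10.93 to 12.07 in B6 livers, a difference of −2.22 (adjusted p = 4.10e-06), or −1.57 with the block (adjusted p = 0.0602). Sult1e1 and Sult2a8 thus stood on opposite sides in obese vehicle livers, 1 high and 1 low. Sult1e1 fell by both leptin routes, whereas Sult2a8 was called higher by the SQ route alone, a call lost with the block.

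Of 19 symbols named for genes that supply sulfate and handle the cofactor, some older names of a listed gene, 14 genes were tested. In vehicle ob/ob against B6 1 was higher, 9 were lower and 4 were not called, beside 32.7% higher and 36.3% lower over all tested probes, with a median of −1.28 beside 0.07 over all genes. The lower ones were Papss1 (−1.53), the other PAPS synthase; the sulfate carrier Slc26a1 (−0.90); Bpnt1 (−1.85) and Bpnt2 (−1.02), which clear the spent cofactor; Suox (−2.67), which oxidises sulfite to sulfate; Tst (−2.28); and the cysteine enzymes Cth (−2.73), Cbs (−1.93) and Csad (−2.60). Sqor, which oxidises sulfide, was the higher one (1.58). With the class as a block 2 were called, Tst (−0.92, adjusted p = 0.0326) and, in the opposite direction, Mpst (0.93, adjusted p = 0.0362). Subcutaneous leptin gave 8 that rose and 1 that fell in LEP-SQ against VEH-SQ, beside 22.1% higher and 19.8% lower over all probes, among them Csad (3.39), Cth (2.24) and Suox (1.96), and 0 were called with the block. In LEP-ICV against VEH-ICV Tst rose (1.27, adjusted p = 0.0116) and Sqor fell (−1.02, adjusted p = 0.0484), both lost with the block. The median there was 0.18 beside 0.01 over all genes. Over all probes the block called 7.81% in vehicle ob/ob against B6. It called 0.245% in LEP-SQ against VEH-SQ and 11.4% in LEP-ICV against VEH-ICV.

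**Figure D4:**
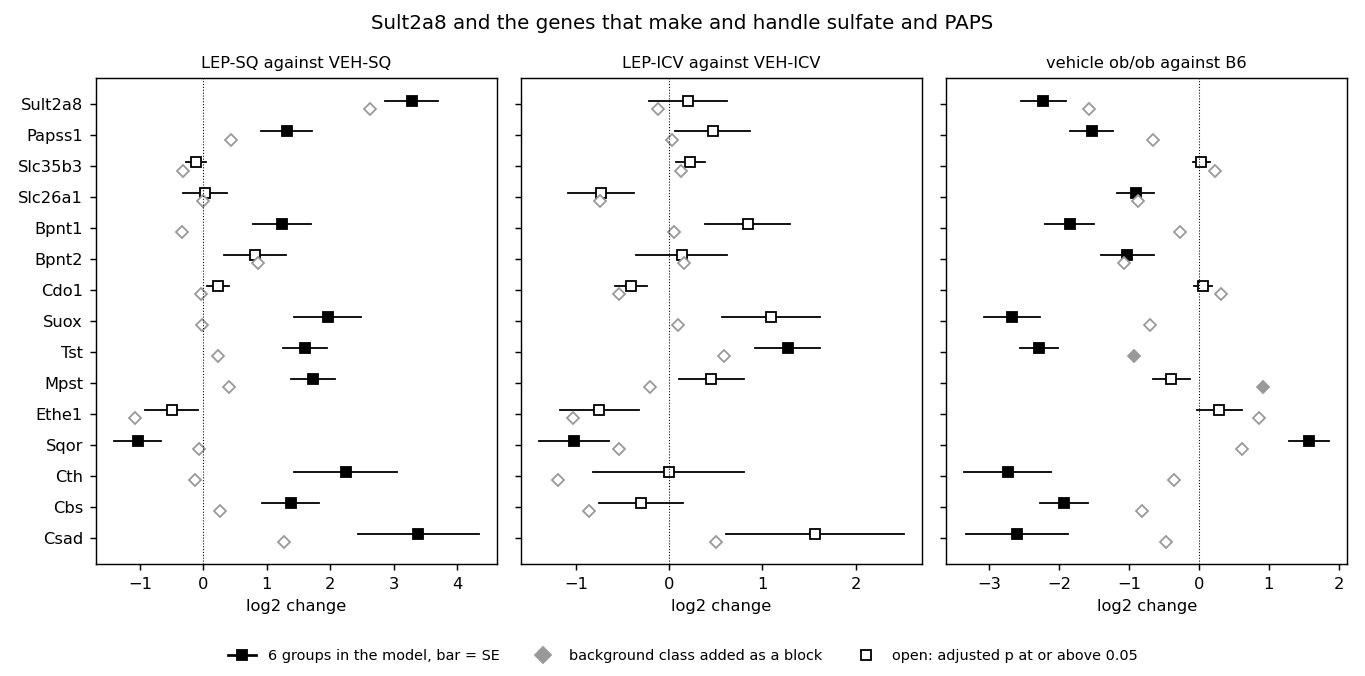
Log2 difference of Sult2a8 and of 14 genes of sulfate supply and cofactor handling (x axes, bars are SE) in 3 comparisons, with grey diamonds for the class as a block. Sult2a8 lies far to the right in LEP-SQ against VEH-SQ and near 0 in LEP-ICV against VEH-ICV, and 9 supply genes are called left of 0 in vehicle ob/ob against B6; the diamonds of these 9 lie nearer to 0 except for Bpnt2, and that of Mpst lies on the other side of 0.

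Sulfatases, which remove sulfate, gave 4 higher and 2 lower of 7 tested in vehicle ob/ob against B6, where 68.9% of all probes were called, and 1 higher and 0 lower with the block. The lysosomal arylsulfatase Arsa was higher by 2.22, and by 1.69 with the block (adjusted p = 0.000186). In LEP-ICV against VEH-ICV Arsb (2.08) and Arsg (1.29) rose, neither of them with the block, under which Arsa was the one called (0.72, adjusted p = 0.0345). Of the sulfatases, 2 were higher and 2 lower in LEP-SQ against VEH-SQ, beside 22.1% and 19.8% of all probes, and 0 were called with the block. Golgi sulfotransferases, which act on proteins, lipids and glycans, gave 4 higher and 4 lower of 8 tested in vehicle ob/ob against B6, and 1 higher and 1 lower with the block. Those called both ways were the tyrosylprotein sulfotransferase Tpst1, which was lower (−2.24, and −1.31 with the block, adjusted p = 0.00202), and Gal3st1, which makes sulfatide and was higher (2.97, and 2.11 with the block, adjusted p = 0.015). In LEP-ICV against VEH-ICV 2 of these 8 rose and 1 fell, in LEP-SQ against VEH-SQ 1 rose and 1 fell, and none of those calls held with the block. Over all probes 12.5% were higher and 10.9% lower by the ICV route, and 22.1% and 19.8% by the SQ route. With the block, 7.81% of all probes were called in vehicle ob/ob against B6, 11.4% by the ICV route and 0.245% by the SQ route.

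Of 9 tested nuclear receptors known to act on sulfotransferase genes, the xenobiotic receptor Nr1i3 (−1.28, adjusted p = 0.0155) and the estrogen receptor Esr1 (−1.73, adjusted p = 0.0153) fell in LEP-ICV against VEH-ICV, where 23.4% of all probes were called, and neither was called with the block. In LEP-SQ against VEH-SQ 1 rose and 1 fell, beside 22.1% higher and 19.8% lower over all probes, and 0 were called with the block. In vehicle ob/ob against B6 3 were higher, Nr1i2 (1.98), Hnf4a (1.86) and Esr1 (1.30), and Nr1i3 (−0.68) and Nr1h3 (−0.60) were lower, with 0 called under the block. Over all probes 32.7% were higher and 36.3% lower there, and 7.81% were called with the block. The block called 11.4% of all probes in LEP-ICV against VEH-ICV and 0.245% in LEP-SQ against VEH-SQ.

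Since Sult3a1 and other members differ by sex in mice, markers of sex in the liver were read too. Xist was detected in all 6 B6 livers and the Y-linked Kdm5d and Eif2s3y in none of the 26. The Xist level was higher in vehicle ob/ob than in B6 by 1.496 (adjusted p = 0.000842, limma), and by 0.024 with the block (adjusted p = 0.982). Of 5 tested genes known to be higher in female liver, 4 were lower in vehicle ob/ob than in B6, beside 36.3% of all probes, and 1 was lower with the block. Of 6 known to be higher in male liver, 4 were higher and 2 lower, beside 32.7% and 36.3% of all probes. With the block they were 1 and 2, where 7.81% of all probes were called. In LEP-ICV against VEH-ICV, 0 of the female-biased genes were called, and 1 male-biased gene was higher and 3 were lower, 0 and 3 with the block. Over all probes 12.5% were higher and 10.9% lower there, and 11.4% were called with the block. The part of hormonal state in the members' levels was not tested.

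The genes whose levels over the 26 arrays were most like those of Sult1e1, of 7952 compared, were Pla2g4f (r = 0.937), Rdh16 (0.917), 9130409I23Rik (0.916), Anapc16 (0.913) and Tpmt (0.903). For Sult1d1 they were Pdk2 (0.92), Dbt (0.899), Afmid (0.895), Aldh1l1 (0.891) and Mmab (0.886), and for Sult3a1 Cir1 (0.927), Pdzd9 (0.914), Septin10 (0.886), Ces1a (0.876) and Zc3h11a (0.862). Among members, Sult1e1 and its neighbour Sult1d1 had r = 0.0243, Sult1e1 and Sult3a1 0.638, and Sult1d1 and Papss2 0.748. These correlations pool groups and background classes and are given as descriptions over 26 arrays.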

How the data were processed

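Liver RNA was measured in 26 mice, with 1 Illumina MouseRef-8 v2.0 array for each. The authors deposited probe intensities summarised by BeadStudio 2.0, without normalisation, each with a detection p-value that rises with intensity, so that 1 minus the deposited value was used as the detection p. The deposited log2 values, made by the authors with lumi (variance stabilisation, robust spline), served as an alternative. Groups are those of the labels, and each array is 1 mouse, so replicates are animals, and their number limits the precision.

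Intensities were background corrected, quantile normalised with an offset of 16 and log2 transformed (neqc, limma 3.58.1, R 4.3.3). Probes detected on at least 4 arrays (detection p under 0.01) were tested in one model of 6 groups with empirical Bayes moderation and Benjamini-Hochberg adjustment. The model was checked on simulated data. Alternatives covered background correction, scaling, filter, array weights, background class, samples in the fit and each mouse left out.

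Of 25697 probes, 23978 had 1 gene symbol, 0 had several and 1719 had none in the platform annotation, and 23962 were matched to RefSeq. Of the 9 members, 8 had a promoter there. Gene lists used each gene's brightest tested probe (7953 genes). All tested member probes and list genes called in LEP-ICV against VEH-ICV or vehicle ob/ob against B6 were to be named; LEP-SQ examples and Mpst were chosen after their values were seen. The members and lists were chosen with earlier results of these data known. Lists of endothelial, stellate, cholangiocyte and lymphocyte markers were tested too: in LEP-ICV against VEH-ICV 2 of 4, 1 of 5, 0 of 1 and 0 of 4 were higher and none was lower. Over all probes 12.5% were higher and 10.9% lower there.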

Additional observations from a re-analysis of the deposited data

Results flagged for a closer look

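Of 48 sets of a member probe in a group, 4 held a sample that stood apart by Dixon's test at the 95% level; chance gives about 1 in 20 sets. Sult3a1 was 5.83 in mouse LEP_SQ_1032, with the other LEP-SQ mice at 4.60 to 4.79. Sult3a1 was 6.43 in mouse B6_5542, with the other B6 mice at 4.66 to 5.28. The Sult5a1 probe ILMN_2731020 was 4.61 in mouse VEH_ICV_1010, with the others at 4.80 to 4.83 and all of them below detection. Papss2 was 6.81 in mouse VEH_SQ_1034, with the others at 7.74 to 7.89, and it was the only array on which Papss2 was not detected.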

How the results depend on the processing

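The fall of Sult1e1 in LEP-SQ and LEP-ICV livers against their vehicles, and its higher level in vehicle ob/ob than in B6, kept their direction and call in all 16, 16 and 24 alternatives, as did both Sult5a1 probes in vehicle ob/ob against B6 (24) and LEP-SQ against B6 (20). The filter of 13 arrays could not test Sult1e1, Sult3a1 or Sult5a1, so those counts do not include it for them. The Sult5a1 probe ILMN_2731020 passed the detection rule of the main model only through B6 arrays. No paired analysis was possible because the animal numbers of the labels are not shared between groups. Weak probes are limited by the array background, whose classes part LEP-SQ from VEH-SQ and vehicle ob/ob from B6.

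Detection on at least 13 arrays left only Sult1a1, Sult1c2, Sult1d1 and Papss2 to test, so the counts under it are out of these 4 alone. Of 8 member probes, those called in LEP-SQ against VEH-SQ (4) numbered 2 without background correction, 2 in the authors' log2 values, 1 with detection on at least 13 arrays, 7 with array weights, 1 with the class as a block and 7 when only the groups compared were fitted. In LEP-ICV against VEH-ICV (4) they numbered 2 with detection on 13 arrays, 2 with the block and 1 on low-background arrays. In LEP-ICVN against VEH-ICV (0) they numbered 3 with array weights. In LEP-ICV against LEP-ICVN (2) they numbered 1 with median scaling, 1 in the authors' values, 1 with detection on 13 arrays, 4 with array weights, 0 when only the groups compared were fitted and 0 on low-background arrays. In vehicle ob/ob against B6 (8) they numbered 4 with detection on 13 arrays and 3 with the block. In LEP-SQ against B6 (2) they numbered 0 with detection on 13 arrays, 5 with array weights and 4 when only the groups compared were fitted. For the difference between routes (0) they numbered 3 with array weights. Array weights called 71.8% of all tested probes in LEP-SQ against VEH-SQ and 74.5% in LEP-ICVN against VEH-ICV. They called 36.6% in LEP-ICV against LEP-ICVN, 35.9% in LEP-SQ against B6 and 18.1% for the difference between routes.

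With 1 mouse left out in turn, the counts ran from 3 to 4 in LEP-SQ against VEH-SQ and in LEP-ICV against VEH-ICV, from 0 to 1 in LEP-ICVN against VEH-ICV (1 without mouse LEP_ICVN_1016), from 2 to 3 in LEP-SQ against B6 (3 without mouse B6_2021) and from 0 to 2 for the difference between routes (2 without mouse LEP_ICV_1003, 1 without mouse LEP_ICV_1017). They stayed at 2 in LEP-ICV against LEP-ICVN and at 8 in vehicle ob/ob against B6.

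Changes that turned sign were small or rested on the class. With the block, LEP-SQ against VEH-SQ was −0.54 for Sult1a1, −0.20 for Sult1d1 and −0.0059 for Papss2, LEP-ICV against VEH-ICV was −0.22 for Sult1a1, and LEP-ICVN against VEH-ICV was −0.18 for Sult1d1. On low-background arrays Sult1a1 was −0.068 in LEP-ICV and Sult1d1 −0.28 in LEP-ICVN against VEH-ICV. With array weights Sult1d1 was −0.25 in LEP-SQ against VEH-SQ and −0.083 in LEP-ICVN against VEH-ICV, and the Sult5a1 probe ILMN_2922178 −0.10 in LEP-ICV against VEH-ICV. With median scaling, which moved the median of all probes by 0.62 in LEP-SQ against VEH-SQ, 0.49 in LEP-ICV against VEH-ICV and −0.74 in vehicle ob/ob against B6, Papss2 was 0.17 in LEP-ICV against VEH-ICV; relative to that median it was still lower. That scaling split the calls over all probes into 3669 higher and 481 lower in LEP-SQ against VEH-SQ, where the model of 6 groups gave 2426 and 2183, into 1835 and 353 in LEP-ICV against VEH-ICV (1378 and 1201), and into 1405 and 6149 in vehicle ob/ob against B6 (3592 and 3992).

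Leaving out 1 mouse gave −0.17 to 0.25 for Sult1d1 in LEP-ICVN against VEH-ICV, −0.13 to 0.35 for Sult1d1 in LEP-SQ against VEH-SQ (lowest without mouse VEH_SQ_1034), −0.25 to 0.49 for ILMN_2922178 in LEP-ICV against VEH-ICV (lowest without mouse LEP_ICV_1003) and −0.063 to 0.48 for Sult1a1 there (lowest without mouse LEP_ICV_1017). In alternatives chosen after seeing the data, the 2 LEP-ICVN mice on high-background arrays stood in for vehicle mice. In place of VEH-SQ they left 1 called member, Sult1e1, with −0.53 for Sult1a1 and −0.55 for Sult1d1. In place of vehicle ob/ob they left 3, Sult1e1 and both Sult5a1 probes, with 0.073 for Sult1a1, 0.079 for Sult1c2 and −0.26 for Sult3a1 against B6. The causes of these shifts were not tested.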
